A study of Homo sapiens with 8 samples.

Results

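NEU1, GLB1 and 8 further mRNAs of lysosomal proteins are described here for their contacts with LARP6, an RNA-binding protein of the La-related family that is known for binding a stem-loop in collagen mRNAs. The lysosome is the acidic compartment in which sugars, proteins and lipids are broken down by hydrolases that are made at the endoplasmic reticulum and delivered through the Golgi apparatus. Neuraminidase 1 (NEU1, which removes sialic acid) and β-galactosidase (GLB1) are held in a lysosomal complex with cathepsin A (CTSA), a protease that protects both. The other genes were the proteases CTSB, CTSD and CTSF, the cholesterol-binding protein NPC2, the heparan sulfate hydrolase NAGLU, CLN8, which helps to load lysosomal enzymes for export from the endoplasmic reticulum, and the membrane glycoprotein LAMP1.

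The 10 genes were chosen by their function and with the log2 fold of the peaks of these data known, since NEU1 holds some of the highest peaks of both conditions. Their enrichment over input is therefore a description and was not tested. All regions were taken whose midpoint lay within the bounds of a gene on its strand (GRCh38). They made 430 of 178461 regions over all files, which were 89 of 31137 and 117 of 54536 tested clusters in TGFβ1 replicates 1 and 2, 107 of 51273 and 97 of 39880 in control replicates 1 and 2, 12 of 1008 peaks in the authors' TGFβ1 list made from both replicates, and 8 of 627 in their control list.

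All libraries came from wild-type human hepatic stellate cells in serum-containing medium, a liver cell type that lays down collagen once activated. One group received TGFβ1, a cytokine that activates them, at 5 ng/ml. For the control group the labels use 2 names, DMSO and untreated. Each condition had 2 eCLIP libraries, in which RNA crosslinked to LARP6 by ultraviolet light is immunoprecipitated and sequenced, and the size-matched inputs enter through the deposited fold over input. Whether the replicates were separate cultures is not given, so their spread, and the p-values that rest on it, may be technical. The cells were assayed in bulk, so fewer cells with a bound RNA and less binding per cell cannot be told apart. Of 10 stellate cell markers, 10 were covered by tested clusters in each library. Coverage in both libraries of a condition held for 1 of 10 macrophage, 0 of 9 hepatocyte, 0 of 8 endothelial and 2 of 6 cholangiocyte markers in each condition.

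Values per region are the authors' log2 fold over input and the authors' −log10 p. A cluster was called enriched where both were at least 3. Enriched clusters in the 10 genes numbered 10 and 15 in the TGFβ1 libraries and 8 and 8 in the control libraries. Over all tested clusters, 2.69% and 3.64% were enriched in the TGFβ1 libraries, and 1.21% and 2.09% in the control libraries. Abutting pieces of 1 site are counted separately in these numbers. An enriched cluster lay in 5 and 6 of the 10 genes in the TGFβ1 libraries and in 4 and 4 in the control libraries, against 6.64% and 11.9% of all tested protein-coding genes in the TGFβ1 libraries and 3.02% and 5.17% in the control libraries. A peak of the authors' lists lay in 6 of the 10 genes in TGFβ1 (NEU1, GLB1, CTSF, NPC2, NAGLU and CLN8) and in 4 in control (the first 4 of these). Among protein-coding genes covered in both libraries, 7.13% of 5234 had a listed peak in TGFβ1 and 3.91% of 5367 in control. Since the genes were chosen for their peaks, nothing is read from this contrast. With a limit of 5 on the −log10 p, 3 genes (NEU1, GLB1 and NPC2) remained listed in TGFβ1 and 2 (NEU1 and NPC2) in control. CTSF fell barely short of this limit, with a highest −log10 p of 4.97 in the TGFβ1 list and 4.999 in the control list.

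**Figure D1:**
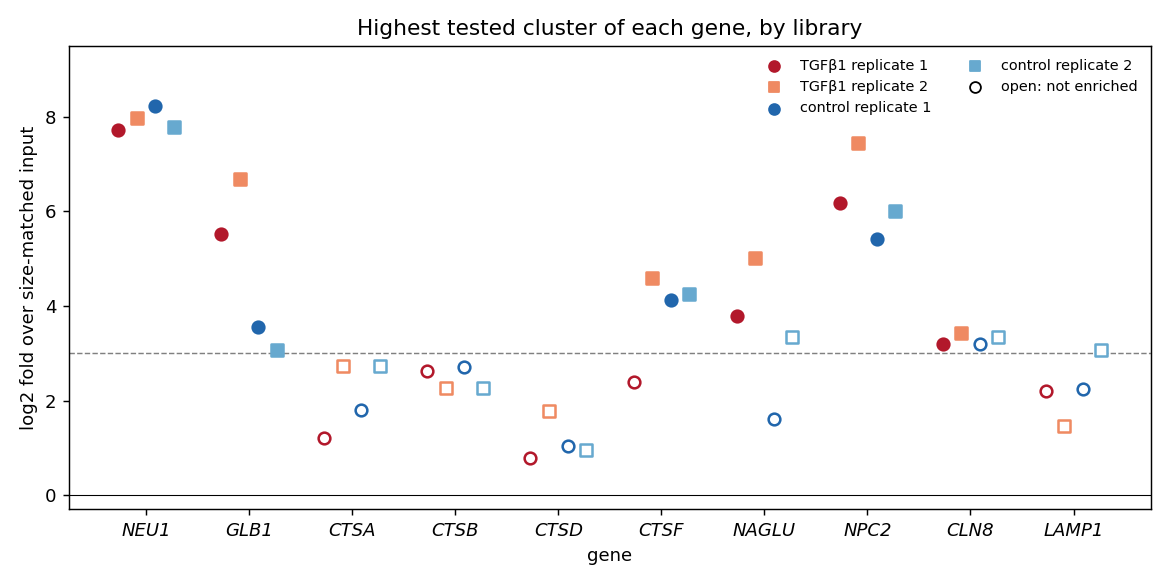
Highest log2 fold over input among the tested clusters of each gene (y axis) in 2 TGFβ1 and 2 control libraries, with filled symbols where that cluster was enriched and a dashed line at a log2 fold of 3. NEU1 lies between 7.73 and 8.23 in all 4 libraries, NPC2 and GLB1 lie higher in TGFβ1, and CTSA, CTSB, CTSD and LAMP1 have no filled symbol.

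NEU1 (chromosome 6, 31857659 to 31862821, minus strand) carried LARP6 contacts at 2 short sites and had no tested cluster anywhere else in the gene. Each tested cluster of NEU1 was enriched, with 5 of 5 and 5 of 5 in the TGFβ1 libraries and 5 of 5 and 3 of 3 in the control libraries. Few clusters were tested, so the enrichment rests on 2 genomic places of a gene of 5163 nt. The inner site spanned 31862142 to 31862192 (51 nt) and began 629 nt from the annotated 5′ end. Its highest log2 fold was 7.73 and 7.97 in TGFβ1 replicates 1 and 2, and 8.23 and 7.78 in control replicates 1 and 2. These values came from pieces of unlike width, at 41 and 8 nt in TGFβ1, and 8 and 51 nt in control. In the pieces starting at 31862142, the log2 fold was 7.73 and 7.63 in TGFβ1, and 7.37 and 7.78 in control. Control replicate 1 was thus the highest by one measure and the lowest by the other. The highest values of the 2 conditions overlapped, at 7.85 ± 0.17 in TGFβ1 and 8.01 ± 0.32 in control (SD, n = 2 each), a difference of -0.15 (exact permutation test, two-sided, p = 0.667). NEU1 was chosen with its folds known and its site came from the control list, so this p-value is a description. With 2 libraries against 2, the test cannot give a p under 0.333.

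The outer NEU1 site spanned 31862618 to 31862672 (55 nt), 149 nt from the 5′ end and 425 nt from the inner one. There the highest log2 fold was 7.32 and 7.75 in TGFβ1 replicates 1 and 2, and 8.02 and 7.23 in control replicates 1 and 2. These values came from pieces of 24 to 53 nt. The conditions overlapped here too, at 7.54 ± 0.31 in TGFβ1 and 7.63 ± 0.56 in control (SD, n = 2 each). Edges of the sites recurred between libraries. In genomic coordinates, which run against this strand, the inner site started at 31862142 in all 4 libraries. It ended at 31862191 in TGFβ1 replicate 1 and at 31862192 in the other libraries, and the outer site started at 31862618 in all 4. The facing edges were thus nearly fixed. Exons were not annotated here, so whether the 2 sites lie apart or adjoin in the spliced mRNA was not tested. By its highest listed peak, NEU1 ranked 10th among protein-coding genes of the TGFβ1 list and 8th in the control list.

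Of 180 other protein-coding genes listed in both conditions, the 5 whose highest log2 fold per library lay nearest to that of NEU1 over the 4 libraries were COL1A1, COL1A2, CAMK2N1, LRP1 and RDX. COL1A1, a chain of type I collagen, was the nearest, at 7.59 and 7.79 in the TGFβ1 libraries and 7.91 and 7.70 in the control libraries. Its Euclidean distance from NEU1 was 0.40 log2 units. COL1A2, the partner chain, followed at 1.02, and RDX, which links actin to the membrane, lay at 1.68. The highest fold was taken over the whole gene, so its place may differ between libraries. At the highest listed COL1A1 site it was 7.59 and 7.15 in the TGFβ1 libraries, and 7.91 and 7.70 in the control libraries. NEU1 was chosen with its high peaks known, so nothing beyond a like height of fold is read from this nearness.

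GLB1 (chromosome 3, 32961108 to 33097146, minus strand) had 1 listed site in each condition, and its log2 fold was higher in TGFβ1. The TGFβ1 peak spanned 33084597 to 33084688, and the control peak spanned 33084602 to 33084678 within it. In a gene of 136039 nt, the site began 12458 nt after the annotated 5′ end. Its log2 fold was 5.53 and 6.68 in TGFβ1 replicates 1 and 2, and 3.55 and 3.07 in control replicates 1 and 2. Both TGFβ1 values exceeded both control values. The −log10 p was 13.2 and 30.6 in TGFβ1 and 3.12 and 3.69 in control, so that the control clusters passed the p limit narrowly.

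The GLB1 site averaged 6.10 ± 0.81 in TGFβ1 and 3.31 ± 0.34 in control (SD, n = 2 each), a difference of 2.79 log2 units (exact permutation test, two-sided, p = 0.333). With 2 libraries against 2, 0.333 is the smallest p that this test can give. GLB1 was chosen with its folds known, and its site was its highest peak over both lists, here that of TGFβ1. The p-value and the ranks below are therefore descriptions. Differences in this direction were common among listed genes. Of 395 listed protein-coding genes with a value in all 4 libraries at their highest site, 53.4% had both TGFβ1 values above both control values and 4.56% the reverse, and the median difference was 1.07. Among the 181 of these listed in both conditions, the median difference was 0.80 and GLB1 ranked 2nd, and over all 395 it ranked 14th. Genes listed in TGFβ1 alone are among the 395, and their listing favours a higher value in TGFβ1. Elsewhere in GLB1, 2 clusters were enriched in TGFβ1 replicate 2, at log2 folds of 3.72 and 3.18, and 0 in the other 3 libraries. Both lay within the bounds of TMPPE (33090422 to 33097146), a gene whose bounds overlap those of GLB1 and whose strand was not given in the tables used here, so their gene is uncertain.

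CTSA (chromosome 20, 45891335 to 45898820, plus strand), which shares a protein complex with NEU1 and GLB1, had no enriched cluster. It was covered by 9 and 13 tested clusters in the TGFβ1 libraries and 15 and 16 in the control libraries, more than NEU1 in each library. The highest log2 fold was 1.20 and 2.72 in the TGFβ1 libraries and 1.79 and 2.72 in the control libraries. Of the 3 mRNAs of this complex, CTSA alone had tested clusters and 0 enriched ones in each library.

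NPC2 (chromosome 14, 74479935 to 74493512, minus strand) had its listed site near the 3′ end, and this site coincided with the annotated hairpin of the microRNA gene MIR4709. The hairpin covers 74480133 to 74480204 (72 nt) on the same strand, 198 nt from the 3′ end of NPC2. Listed peaks spanned 74480139 to 74480197 in TGFβ1 and 74480134 to 74480197 in control. They covered 57 of the 72 hairpin bases in TGFβ1 and 64 in control, and no base outside it. In the single libraries, 1 base of TGFβ1 replicate 1 reached beyond the hairpin. Signal from NPC2 mRNA and from the microRNA precursor cannot be told apart. The bases at the 3′ end of the site also lie within the bounds of SYNDIG1L (end at 74480143, minus strand).
The 2 mature arms are shown because the peaks lie over them, with the seed (bases 2 to 8) in capitals (RefSeq, GRCh38.p14).
hsa-miR-4709-5p: aCAACAGUgacuugcucuccaa
hsa-miR-4709-3p: uUGAAGAGgaggugcucuguagc

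The 5p arm (74480175 to 74480196) lay wholly within the listed peaks of both conditions. Of the 23 bases of the 3p arm (74480135 to 74480157), 19 lay in TGFβ1 listed peaks and 23 in the control peak. The 2 seeds differ from each other, and 0 other mature microRNAs in the RefSeq table had either. RNAfold predicted 1 stem-loop with 27 base pairs over the 72 nt and a minimum free energy of -24.6 kcal/mol, which is a prediction from the sequence alone. Of 1562 annotated hairpins, 35 in TGFβ1 and 31 in control overlapped a tested cluster in both libraries, and 3 in each condition overlapped a listed peak. MIR4709 and MIR27A did so in both.

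**Figure D2:**
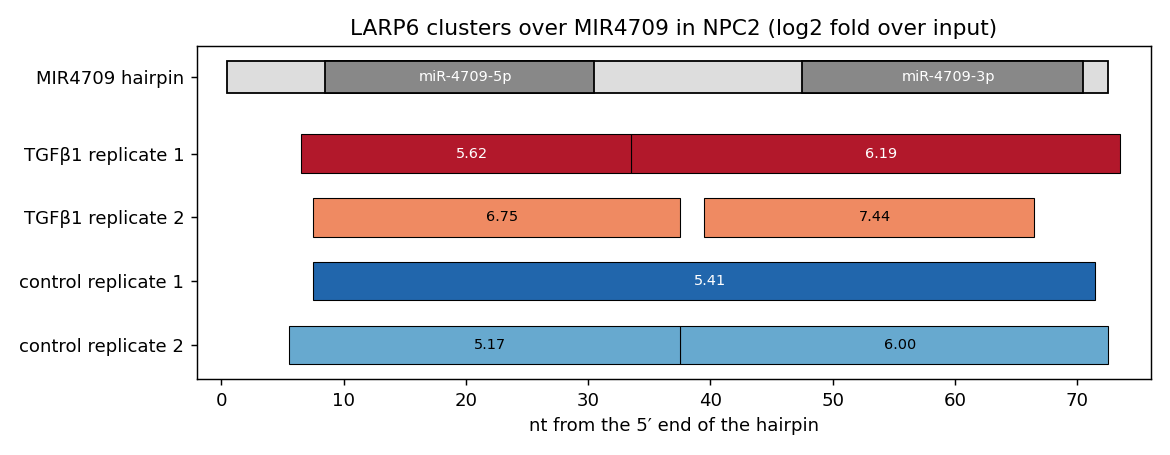
Tested clusters over the MIR4709 hairpin in NPC2, as bars by library with their log2 fold over input, below the hairpin and its 2 mature arms (x axis, nt from the 5′ end of the hairpin). The clusters of all 4 libraries lie over the hairpin, and 3 libraries have a cluster over each arm.

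At the NPC2 site, the highest log2 fold was 6.19 and 7.44 in TGFβ1 replicates 1 and 2, and 5.41 and 6.003 in control replicates 1 and 2. In control replicate 1 this was a cluster of 64 nt over both arms. In the other libraries it was a piece of 27 to 40 nt, so the values cover unlike widths. The TGFβ1 values lay above the control values, at 6.82 ± 0.89 in TGFβ1 and 5.71 ± 0.42 in control (SD, n = 2 each). The difference of 1.11 (exact permutation test, two-sided, p = 0.333) stood beside a median of 0.80 over genes listed in both conditions, and it was 0.48 without TGFβ1 replicate 2. The NPC2 site was also taken from the TGFβ1 list as the higher one, so this p-value is a description. In each library with a cluster on each side, the one over the 3p arm had the higher fold. In TGFβ1 replicate 1 these were 6.19 and 5.62, in TGFβ1 replicate 2 they were 7.44 and 6.75, and in control replicate 2 they were 6.003 and 5.17. Elsewhere in NPC2 0 clusters were enriched, and the log2 fold reached 2.43 and 0.82 in TGFβ1 and 1.38 and 0.85 in control.

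CTSF (chromosome 11, 66563464 to 66568606, minus strand) had its site 286 nt from the 3′ end, listed in both conditions. The TGFβ1 peaks spanned 66563759 to 66563838 and the control peak 66563750 to 66563833. The log2 fold at the site was 2.39 and 4.58 in TGFβ1 replicates 1 and 2, and 4.12 and 4.26 in control replicates 1 and 2. The control values lay close together and between the TGFβ1 values. Means were 3.49 ± 1.55 in TGFβ1 and 4.19 ± 0.10 in control (SD, n = 2 each; difference -0.70, exact permutation test, two-sided, p = 1). CTSF was also chosen with its folds known and its site came from the control list, so this p-value is a description. TGFβ1 replicate 1 held 1 cluster of 171 nt there (−log10 p 4.37), which failed the fold limit, against pieces of 38 to 137 nt in TGFβ1 replicate 2. Without TGFβ1 replicate 1 the difference was 0.39.

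NAGLU and CLN8 were in the TGFβ1 list alone. The NAGLU site (chromosome 17, 42543387 to 42543492, plus strand) lay 957 nt from the 3′ end. Its log2 fold was 3.79 and 5.01 in TGFβ1 replicates 1 and 2, and 0.96 and 3.35 in control replicates 1 and 2. Both TGFβ1 values lay above both control values, at 4.40 ± 0.86 in TGFβ1 and 2.16 ± 1.69 in control (SD, n = 2 each). The control values differed by more than the TGFβ1 values did. The difference was 2.24, and 1.05 without control replicate 1. No p-value is given for it, because the site was set by the TGFβ1 list alone, which favours this direction.

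CLN8 (chromosome 8, 1753059 to 1786570, plus strand) had its site at 1781773 to 1781866, 4704 nt from the 3′ end. Its log2 fold was 3.20 and 3.42 in TGFβ1 replicates 1 and 2, and 3.19 and 3.35 in control replicates 1 and 2. These 4 values overlapped, with a difference of 0.046. No p-value is given for it, since the site came from the TGFβ1 list. What differed was the −log10 p, at 4.01 and 6.86 in TGFβ1 and 2.07 and 2.51 in control. The listing of CLN8 in TGFβ1 alone thus went with the p limit and not with the fold.

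Several values lay close to the limits. Just inside were the CLN8 clusters of TGFβ1, the NAGLU cluster of TGFβ1 replicate 1 (−log10 p 3.20) and the GLB1 clusters of control. Others passed the fold limit and not the p limit. Among these were both CLN8 control clusters and the NAGLU cluster of control replicate 2 (−log10 p 2.51). A LAMP1 cluster of control replicate 2 was also among them, with a log2 fold of 3.07 and a −log10 p of 1.85. In control replicate 2 the NAGLU and CLN8 sites had the same pair of values, a log2 fold of 3.35 and a −log10 p of 2.51, which 32 clusters of that library shared.

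**Figure D3:**
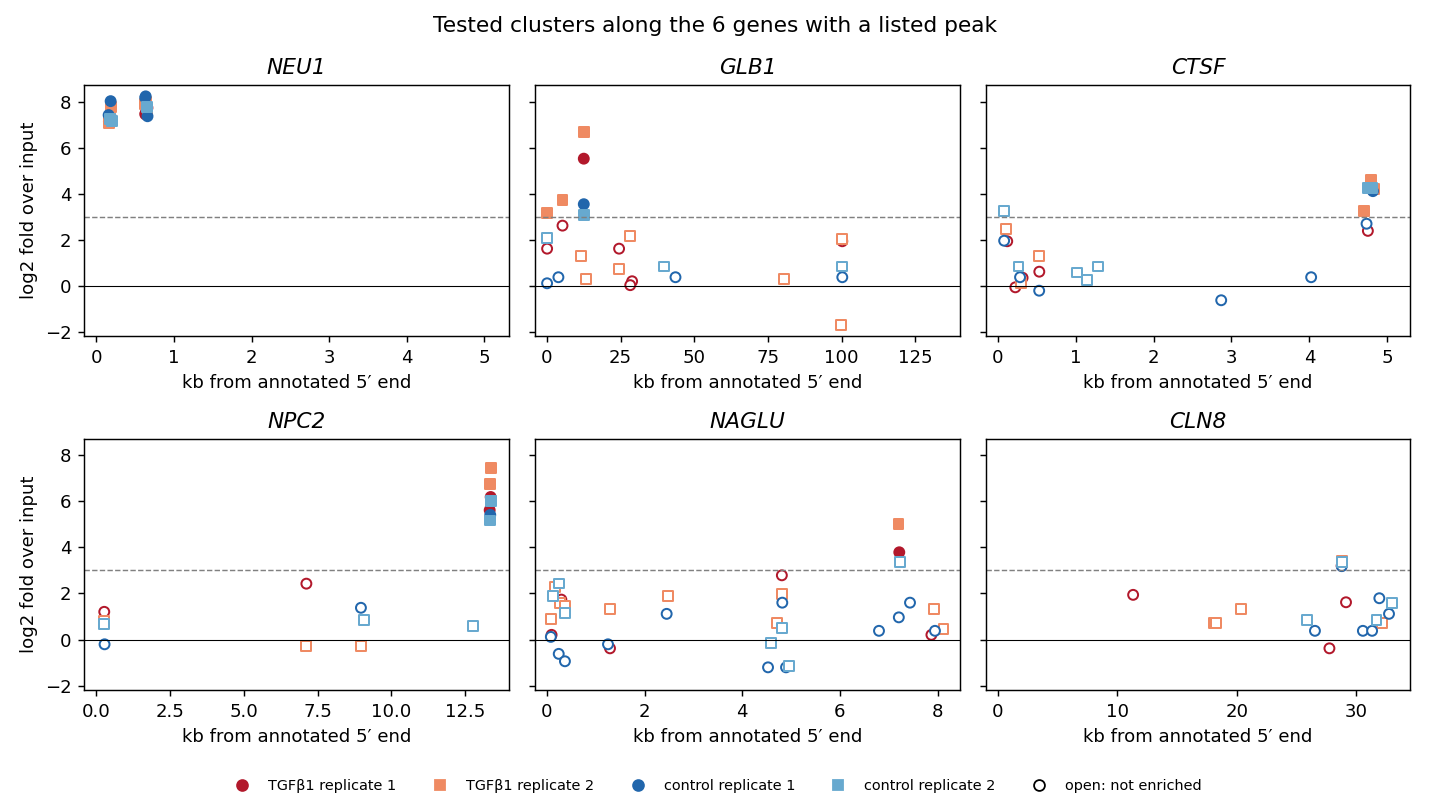
Log2 fold over input (y axis) of all tested clusters along the 6 genes with a listed peak, by distance from the annotated 5′ end in kb (x axis, drawn over the whole gene), with filled symbols for enriched clusters and a dashed line at 3. Enriched clusters sit near the 5′ end in NEU1 and near the 3′ end in CTSF, NPC2 and NAGLU, and the other clusters of these genes lie mostly under 3.

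CTSB, CTSD and LAMP1 had many tested clusters, as CTSA did, and none that passed both limits. With CTSA they held 58 and 75 tested clusters in the TGFβ1 libraries and 69 and 67 in the control libraries, of which 0 were enriched in each library. CTSB, a cysteine protease, had 22 and 25 clusters in TGFβ1 and 20 and 22 in control, with highest log2 folds of 2.62 and 2.26 in TGFβ1 and 2.70 and 2.26 in control. In TGFβ1 replicate 2, 2 CTSB clusters passed the p limit below the fold limit, at a log2 fold of 1.80 with a −log10 p of 7.78 and at 2.26 with 6.09. For CTSD, an aspartic protease, the highest values were 0.79 and 1.77 in TGFβ1 and 1.04 and 0.95 in control. LAMP1, which lines the lysosomal membrane, reached 2.20 and 1.46 in TGFβ1 and 2.25 and 3.07 in control. NEU1, with the highest folds of the 10 genes, had 5 and 5 tested clusters in TGFβ1 and 5 and 3 in control, fewer than any of these 4 genes in each library.

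Position was not used to choose the genes. Listed peaks within 500 nt of the annotated 5′ end numbered 2 of 12 in TGFβ1 and 2 of 8 in control, and all of these were the outer NEU1 site. Over all listed peaks of protein-coding genes this share was 11.8% in TGFβ1 and 13.5% in control. Of the other 9 genes, 8 had tested clusters in this window in each library, with 0 enriched except 1 GLB1 cluster in TGFβ1 replicate 2. CTSF had clusters there at 1.94 and 2.48 in the TGFβ1 libraries and 1.96 and 3.26 in the control libraries, the last with a −log10 p of 2.30. CTSB had a cluster at its 5′ end in each library, at 1.57 and 2.26 in TGFβ1 and 1.67 and 1.54 in control. CLN8 had no tested cluster there. Within 1000 nt of the 3′ end lay 5 of 12 listed peaks in TGFβ1, in CTSF, NPC2 and NAGLU, and 2 of 8 in control, in CTSF and NPC2. Pieces of 1 site are counted separately here. In TGFβ1, CTSF and NPC2 had 2 peaks each at 1 site, and the NPC2 site is the one over MIR4709. Over all listed peaks of protein-coding genes this share was 20.2% in TGFβ1 and 17.7% in control. Exons were not annotated in the tables at hand, so distances run along the gene and not along the transcript.

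A listed site in both conditions was present in 4 of the 10 genes. Of the listed peaks in these genes, 10 of 12 TGFβ1 peaks (83.3%) overlapped a control peak, and 8 of 8 control peaks overlapped a TGFβ1 peak. Over all listed peaks the shares were 61.0% in TGFβ1 and 79.6% in control. NEU1 pieces made up 5 peaks of each list, and without NEU1 the counts were 5 of 7 in TGFβ1 and 3 of 3 in control. Nothing is read from these shares, since the genes were chosen for their peaks in both conditions. The other 2 TGFβ1 peaks were those of NAGLU and CLN8.

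**Figure D4:**
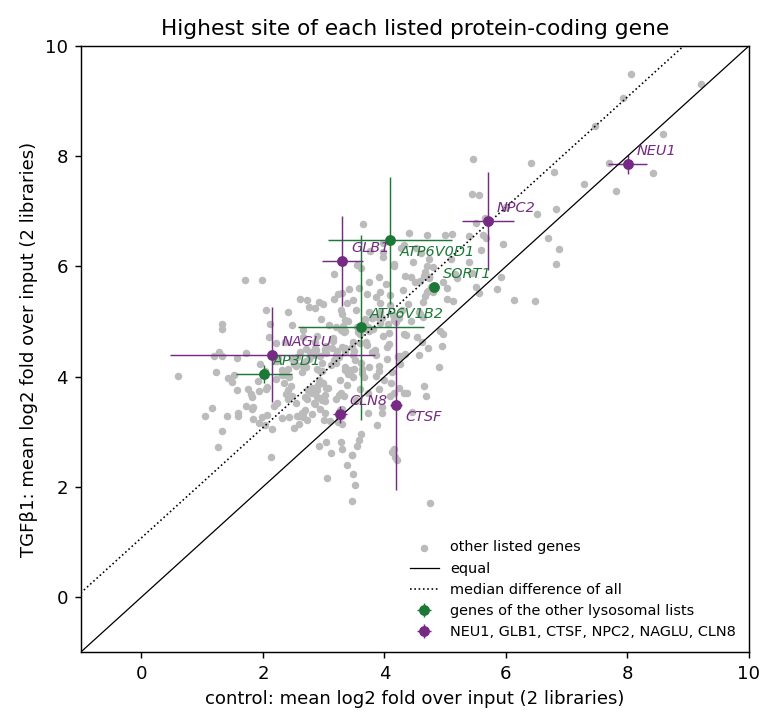
Mean log2 fold over input at the highest site of each of 395 listed protein-coding genes in TGFβ1 (y axis) and control (x axis), 2 libraries each, with SD bars for named genes, a solid line for equal values and a dotted line for the median difference of 1.07. GLB1 and NAGLU lie above the dotted line, NPC2 on it, and NEU1, CLN8 and CTSF at or below the solid line.

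Other lysosomal genes were looked at in 5 further lists with 132 genes, which leave out the 10 genes above. A listed peak lay in 4 of 76 genes tested in both libraries in TGFβ1 (5.26%, 95% Wilson interval 2.07 to 12.8). In control it lay in 3 of 86 (3.49%, 1.19 to 9.76). Over all protein-coding genes the shares were 7.13% and 3.91%. Together with the 10 genes, a listed peak lay in 10 of 86 in TGFβ1 (11.6%) and 7 of 96 in control (7.29%). The 10 genes were chosen with their peaks known, so leaving them out lowers the share and adding them raises it. Nothing is read from either share, and the intervals treat genes as independent. None of the other hydrolases had a listed peak, at 0 of 23 tested in TGFβ1 and 0 of 27 in control. This was also so for membrane proteins, at 0 of 18 in each condition, and for genes of lysosomal regulation such as the TFEB family, at 0 of 12 in each. When the remaining library stood for the condition, 11 other lysosomal genes had an enriched cluster without TGFβ1 replicate 1 and 5 without control replicate 1. Of all protein-coding genes tested in these remaining libraries, 11.9% had one in TGFβ1 replicate 2 and 5.17% in control replicate 2. How many other lysosomal genes were tested in these single libraries is not given. The counts therefore cannot be set against these shares, and nothing is read from them.

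Of the proton pump that acidifies the lysosome (V-ATPase), 2 of 13 tested subunits in TGFβ1 and 2 of 14 in control had a listed peak, ATP6V0D1 and ATP6V1B2, against 7.13% of all protein-coding genes in TGFβ1 and 3.91% in control. The ATP6V0D1 site (chromosome 16, 67438366 to 67438456, minus strand) lay 347 nt from the 3′ end. Its log2 fold was 5.66 and 7.29 in the TGFβ1 libraries and 4.82 and 3.38 in the control libraries, with TGFβ1 above control. The same order was seen in 53.4% of listed genes. At the ATP6V1B2 site, 583 nt from the 3′ end, the values were 3.71 and 6.08 in TGFβ1 and 2.88 and 4.35 in control, which overlapped.

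Of the delivery genes, 2 of 10 tested in TGFβ1 and 1 of 15 in control had a listed peak, beside the same 7.13% and 3.91% of all genes. SORT1 encodes sortilin, a receptor that sorts cargo to the lysosome. Its site (chromosome 1, 109397738 to 109397918, minus strand) reached the annotated 5′ end of the gene. The log2 fold was 5.63 and 5.61 in the TGFβ1 libraries and 4.86 and 4.77 in the control libraries, so that the groups did not overlap and replicates lay close together. The difference of 0.81 was near the median of 0.80 over genes listed in both conditions. Such a separation, with TGFβ1 above control, was seen in 53.4% of listed genes. AP3D1, a subunit of an adaptor complex for lysosomal cargo, was in the TGFβ1 list alone. Its site had 3.94 and 4.17 in TGFβ1 and 2.34 and 1.69 in control, a direction that its listing in TGFβ1 alone favours and that 53.4% of all listed genes showed.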

How the data were processed

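LARP6 eCLIP libraries of 2 conditions with 2 replicates each were used, 4 of 8 samples. Inputs were not analysed on their own. Per the submitters' processing notes, cutadapt, STAR, UMI-tools and the build GRCh38 were used, named without versions, roles or order. Peak calling, normalisation to input and the joining of replicates into lists are not given in the sources used here. No file has a header line. By its range, 1 deposited column is the authors' log2 fold over input, and another, which ends at 400, is −log10 of a p-value set by the authors. With no counts used here, depth is unknown and tested clusters per library stand in for it.

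Genes came from RefSeq (GRCh38.p14), their strand from its promoter table for 7 of the 10 genes and from clusters in that gene alone for CTSB, NAGLU and CLN8. Both sources gave the same strand for 99.3% of 5338 genes. The site of a gene was its highest peak over both lists, which can favour the condition whose list held it. This also holds for the tested sites of NEU1 and CTSF, which came from the control list. The value of a site in a library was the highest fold among clusters overlapping it by at least 1 nt. For the 10 genes, listed pieces of both conditions at most 20 nt apart were merged into 1 site. Members and lists were chosen with earlier results of these data known. Named were the 10 genes, up to 6 listed genes of each other list and the 5 genes nearest to NEU1. MIR4709, MIR27A, SYNDIG1L and TMPPE were added after their values were seen. Assignment was tested on simulated regions. Python 3.11.15, NumPy 2.4.6, pandas 2.3.3, SciPy 1.17.1, matplotlib 3.10.9 and ViennaRNA 2.7.2 were used.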

Additional observations from a re-analysis of the deposited data

How the results depend on the processing

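Of 98 alternative values, 87 kept their direction or stayed within 1.5 times the value reported. With a −log10 p of at least 5, genes with a listed peak numbered 3 in TGFβ1 and 2 in control. With a window of 1000 nt, 5 peaks in TGFβ1 and 5 in control lay near the 5′ end, all in NEU1, and with 200 nt 1 did in control. With 1 library left out, an enriched cluster in the remaining library was counted in place of a listed peak. This gave 5 to 11 other lysosomal genes in TGFβ1 and 2 to 5 in control. How many of them were tested in each single library is not given, so these counts cannot be set against a share. Of all tested protein-coding genes, 6.64% and 11.9% had an enriched cluster in the single TGFβ1 libraries and 3.02% and 5.17% in the control libraries. The difference of TGFβ1 minus control changed sign for NEU1 (-0.38 to 0.071), CTSF (-1.80 to 0.39) and CLN8 (-0.064 to 0.16), and ranged from 2.22 to 3.37 for GLB1, 0.48 to 1.74 for NPC2 and 1.05 to 3.44 for NAGLU. The cause was not tested. With the replicate number as a block, the GLB1 difference was again 2.79 (exact sign-flip test, p = 0.5, the smallest for 2 pairs), a design too small to make any call. Deviations of same-numbered libraries were nearly uncorrelated (r = 0.062 over 395 sites), and whether a number marks a shared culture or day is not given. Between 93.5% and 96.8% of clusters per library had the same pair of fold and p as another cluster, which limits how finely low values can be told apart.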
